A study of Mus musculus with 33 samples.

Results

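In mouse esophageal basal cells, 165 of 12348 genes listed in the mRNA table had a group mean already higher 2 days into deletion of Nudt21. These genes also had higher means at days 4 and 6. They were chosen by measured values. The mean of the KO day 6 libraries had to reach 5 scaled CPM (read counts per library size, as scaled by the authors), the KO day 2 mean 1.5 times the day 0 mean, and the KO day 4 and KO day 6 means 2 times the day 0 mean. The rises over day 0 in the KO libraries are therefore what chose the genes, and they are given as a description with no test.

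The cells were cultured esophageal basal cells with a floxed Nudt21 gene, which the labels of the companion assays give as Nudt21 fl/fl with R26CreER, a tamoxifen-inducible Cre recombinase. Hypomorph cells received 0.05 µM 4-hydroxytamoxifen (4OHT) together with 50 ng/ml doxycycline for 4 or 6 days. KO cells received 0.05 µM 4OHT for 2, 4 or 6 days, and the floxed control cells, called day 0, received ethanol for 4 days. KO days 2 and 6 and hypomorph day 6 thus had no control treated for the same time. Time since deletion and time in culture cannot be told apart. Doxycycline was present in all hypomorph libraries and in no others, so its own effect and that of the hypomorph state cannot be told apart; the sources used here do not say by what means doxycycline changes Nudt21. All cells grew in SAGM medium with Y-27632, CHIR99021, A83-01 and DMH-1. Each of the 6 groups held 3 mRNA libraries, and poly(A) site sequencing (PAS-seq) compared KO day 4 with control. Since no label says that the 3 libraries of a group are separate cultures, each p-value reflects library-to-library spread only, and this spread may be technical.

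Nudt21 encodes CFIm25, the subunit of cleavage factor Im that binds UGUA elements in nascent RNA and favours cleavage at distal poly(A) sites. When it is depleted, many transcripts are known to end at sites nearer the coding region and so carry a shorter 3' UTR, which can remove binding sites for microRNAs and RNA-binding proteins. Basal cells are the dividing layer of the stratified squamous epithelium that lines the esophagus, and they can both make inflammatory signals and enter squamous differentiation.

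Nudt21 itself averaged 5.01 scaled CPM at hypomorph day 4 and 2.77 at hypomorph day 6, which was 38.9% and 21.5% of its day 0 mean of 12.9. In the KO it averaged 3.02, 3.03 and 1.71 at days 2, 4 and 6, or 23.5%, 23.5% and 13.3% of day 0. The libraries held between 16300000 and 91400000 reads on listed genes, to 3 digits. In 7 libraries the liver gene Alb stood above 100 scaled CPM. These were KO day 2 replicate 2, KO day 4 replicates 1 and 3, KO day 6 replicates 1 and 2 and day 0 replicates 1 and 3. No hypomorph library was among them, and counts that change by over 1.5 times without these libraries are given both ways. The summed level of 8 basal epithelial markers lay between 28817 and 35643 scaled CPM in every group. That of 6 suprabasal markers ranged from 842 to 995 at hypomorph day 6, from 4385 to 6142 at KO day 6 and from 580.0 to 2672 at day 0. In bulk RNA, fewer cells of a type and less RNA per cell cannot be told apart.

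Of the 165 genes, 152 were matched to the GRCm38 reference table, as 132 protein-coding genes, 19 long noncoding RNAs and 1 other RNA. Their levels were mostly low. The KO day 6 mean had a median of 12.8 scaled CPM over the genes and a highest value of 507, in Clec2f. At day 0, 52 genes had a mean below 1 scaled CPM, 33 had a mean of at least 10, and 6 had no read in any library. In some low genes the KO day 2 and day 0 libraries overlapped, so their day 2 rise is uncertain. Rbm20 had 0.141, 0.135 and 0 scaled CPM at KO day 2 and 0.055, 0 and 0 at day 0. Pglyrp2 had 0.314, 0.924 and 0.075 at KO day 2 and 0.22, 0 and 0.482 at day 0. The median ratio to day 0, on group means plus 0.5, was 1.70 after 2 days of KO, 2.97 after 4 and 4.95 after 6. The 6 genes without a day 0 read did not move these medians when set to the bound that 3 reads per library allow. The level climbed at every step of the KO course in 136 genes. By day 6, 54 genes stood at 2 or more times their KO day 4 mean, and 28 were at or below it. Just inside the thresholds were Il1a, with a KO day 6 mean of 5.01, and Wnt9a, with a KO day 2 ratio of 1.502. Prelid2 had a KO day 4 ratio of 2.00 and Upk3bl a KO day 6 ratio of 2.02. Just outside were Gm34829 at 4.96 scaled CPM, Nt5c2 at a day 2 ratio of 1.49, Nbeal1 at a day 4 ratio of 1.99 and Ska2 at a day 6 ratio of 1.96.

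**Figure D1:**
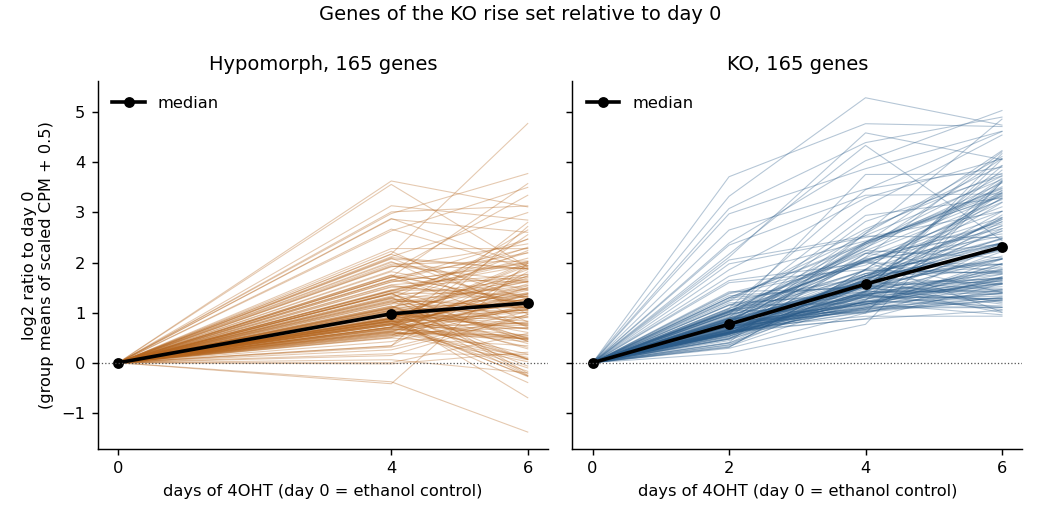
Log2 ratio of each group mean to the day 0 mean, both plus 0.5 scaled CPM, for 165 genes (thin lines) with the median over genes (black), against days of 4OHT; hypomorph on the left, KO on the right. The KO median reaches a ratio of 4.95 at day 6 and the hypomorph median 2.29. Hypomorph courses go both ways after day 4, in shares near those of all genes tested.

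In the hypomorph most of the same genes lay between day 0 and KO at day 4. They then moved in both directions, in shares near those of all genes tested. The median ratio to day 0 was 1.97 at hypomorph day 4 and 2.29 at hypomorph day 6. At day 4 the hypomorph mean lay between day 0 and KO in 151 genes, at or above KO in 11 and at or below day 0 in 3. At day 6 it lay between day 0 and KO in 135, at or above KO in 18 and at or below day 0 in 12. As a share of the KO level at the same day, the hypomorph level had a median of 62.4% at day 4 and 38.6% at day 6. The rule placed KO well above day 0, which favours a hypomorph level between day 0 and KO. These counts were not made over all genes, and nothing is read from them alone.

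Neither group in the comparison of hypomorph day 6 with hypomorph day 4 was used by the rule. The fit, however, took its spread from all 18 libraries, those of the rule among them. Of the 165 genes, 153 reached 1 scaled CPM in at least 3 hypomorph libraries. The rest passed the filter on low values only with the help of KO or day 0 libraries. By limma on log2(scaled CPM + 0.5), with Benjamini-Hochberg adjusted p under 0.05 over the 12344 genes tested, 51 of the 165 genes were higher at hypomorph day 6, 40 were lower and 74 were not called. Over all genes tested, 31.9% were called higher and 30% lower, so the share called was near the background in both directions. The median difference was 0.07 over the 165 genes and 0.02 over all genes tested, on the log2 scale. Scaling every library to the same total moved the median of all genes by -0.16 in this comparison. The split among the 165 genes then turned round, with 39 higher and 53 lower, that is 42.4% of the called genes higher against 56.0% on the deposited scale. Directions given below for single genes are on the deposited scale. Of the 51 rises, 12 were lost on the other scale, among them those of Cystm1, Icosl, Myh10, Pcdhga10, Pglyrp2, Pik3ip1, Tlcd2 and Tmem185b, and no fall was lost.

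Against day 0, 142 genes were higher and none were lower at hypomorph day 4, where 17.5% and 14.1% of all genes tested were called higher and lower. Without day 0 replicate 3, or without hypomorph day 4 replicate 2, 1 gene was called lower. At hypomorph day 6, 137 were higher and 3, Cxcl1, Cxcl3 and Ubap1l, were lower, where 35.9% and 31.3% of all genes tested were called. The 3 lower calls became 7 on the rescaled values, 1 without hypomorph day 6 replicate 2 and 1 when the compared groups were fitted alone. These comparisons share the day 0 libraries with the rule, which favours the higher direction, and nothing is read from the counts alone. The median log2 differences were 1.00 and 1.23 over the 165 genes and 0.01 and 0.03 over all genes. With the 6 genes that had no day 0 read at their bound, the medians were 1.00 and 1.25. The authors' deposited table called 142 genes higher and none lower at hypomorph day 4, and 136 higher and 3 lower at hypomorph day 6.

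Against KO at the same day, 1 gene was higher and 96 were lower at hypomorph day 4, where 13.9% and 10.7% of all genes tested were called. At hypomorph day 6, 8 were higher and 134 lower, where 37.7% and 27% were called. These comparisons share the KO libraries with the rule, which favours the lower direction. The same limit holds for the differences from KO, and their p-values, given below for single genes. The median log2 differences were -0.64 and -1.28. Without the 7 libraries with high Alb, which leaves 1 KO library at each of these days that is assumed to vary like the other groups, the day 4 count of lower genes was 63 and the day 6 count 127. On the rescaled values 5 rather than 8 genes were higher at day 6.

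**Figure D2:**
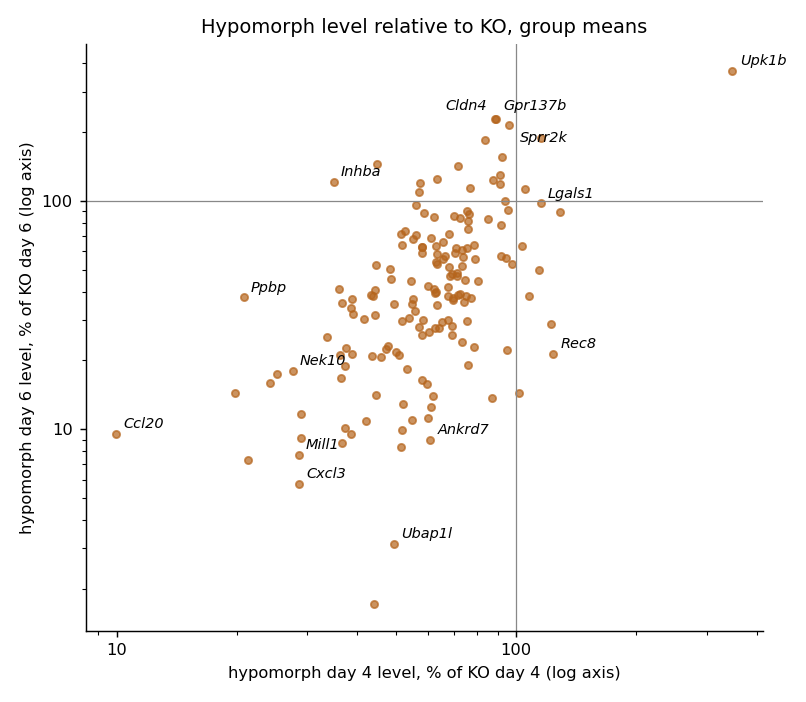
Hypomorph group mean as a percentage of the KO group mean, at day 4 (x axis, log scale) and day 6 (y axis, log scale), 1 dot per gene, with lines at 100%. Most genes lie below 100% on both axes, which the choice of genes by KO level favours. The medians are 62.4% at day 4 and 38.6% at day 6, and Upk1b stands above 100% at both days.

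The level of expression differed widely among the most abundant genes. Per kilobase of gene length, the KO day 6 mean was 336 scaled CPM for Clec2f, 223 for Igfbp7, 172 for Ier3 and 24.7 for Jmjd1c. Clec2f belongs to a family of C-type lectin-like genes in the natural killer gene complex, members of which are ligands of natural killer cell receptors in mice. Clec2f had 356, 301 and 376 scaled CPM at hypomorph day 6 and 221, 194 and 169 at hypomorph day 4. In the KO course it had 62.6, 61.3 and 62.1 scaled CPM without deletion (day 0), then 242, 252 and 241 with KO for 2 days, 375, 341 and 343 for 4 days and 525, 498 and 499 for 6 days. The day 0 libraries lay close together, and all KO and hypomorph libraries stood above them without overlap. Between hypomorph day 6 and hypomorph day 4 it rose, with a log2 difference of 0.82 ± 0.08 (SE; limma adjusted p = 1.53e-09). Reads of near-identical members of this family may be split between genes, which the counting notes do not settle. Of 20 C-type lectin and natural killer receptor genes on a list, 5 were tested, and Clec2f alone belonged to the 165. Between hypomorph day 4 and day 6, 4 of the 5 rose and none fell, against 31.9% and 30% of all genes tested.

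Igfbp7, a secreted binding protein of insulin-like growth factors, had 121, 109 and 133 scaled CPM at hypomorph day 6 and 125, 135 and 147 at hypomorph day 4. Over the KO course the level was 48.1, 51.1 and 68.9 scaled CPM without deletion (day 0), then 135, 129 and 134 with KO for 2 days, 170.5, 197 and 177 for 4 days and 265, 264 and 283 for 6 days. The hypomorph groups overlapped each other and lay below every KO day 6 library, and the log2 difference between hypomorph day 6 and hypomorph day 4 was -0.16 ± 0.10 (SE; limma adjusted p = 0.169). Ier3, an immediate early gene linked to cell survival, also lay below KO, with 119.8, 95.2 and 104 at hypomorph day 6 and 197, 180.0 and 184 at KO day 6. Jmjd1c, which encodes a JmjC-domain protein of the histone demethylase family, had 189, 247 and 238 scaled CPM at hypomorph day 6 and 139, 146 and 140.4 at hypomorph day 4, against 81.9, 94.9 and 97.4 at day 0. It rose between hypomorph day 4 and hypomorph day 6, with a log2 difference of 0.65 ± 0.08 (SE; limma adjusted p = 1.44e-07). Fads3, a fatty acid desaturase, and Tmf1, a Golgi protein, also rose over these days, by 0.60 ± 0.09 (SE; limma adjusted p = 1.49e-06) and 0.45 ± 0.08 (SE; limma adjusted p = 1.03e-05) on the log2 scale. Tmprss11e, a membrane-bound serine protease of squamous epithelia, fell, with 90.1, 94.6 and 113 scaled CPM at hypomorph day 6 and 129, 137 and 130.1 at hypomorph day 4 and a log2 difference of -0.42 ± 0.08 (SE; limma adjusted p = 9.32e-05). It had peaked at KO day 4, with 296, 296 and 296, against 196, 169 and 204 at KO day 6. Syt8, a synaptotagmin of membrane trafficking, had 73.2, 71.7 and 84.5 at hypomorph day 6 and 192, 198 and 191 at KO day 6, with no overlap. Pdpn, the surface glycoprotein podoplanin of basal cells, was the 1 gene of the set among 18 basal epithelial markers tested. Of these 18, 7 rose and 5 fell between hypomorph day 4 and day 6, against 31.9% and 30% of all genes tested. Pdpn had 38.2, 44.4 and 45.8 scaled CPM at hypomorph day 6, 108, 95.8 and 131 at KO day 6 and 25.3, 36.0 and 34.3 at day 0.

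**Figure D3:**
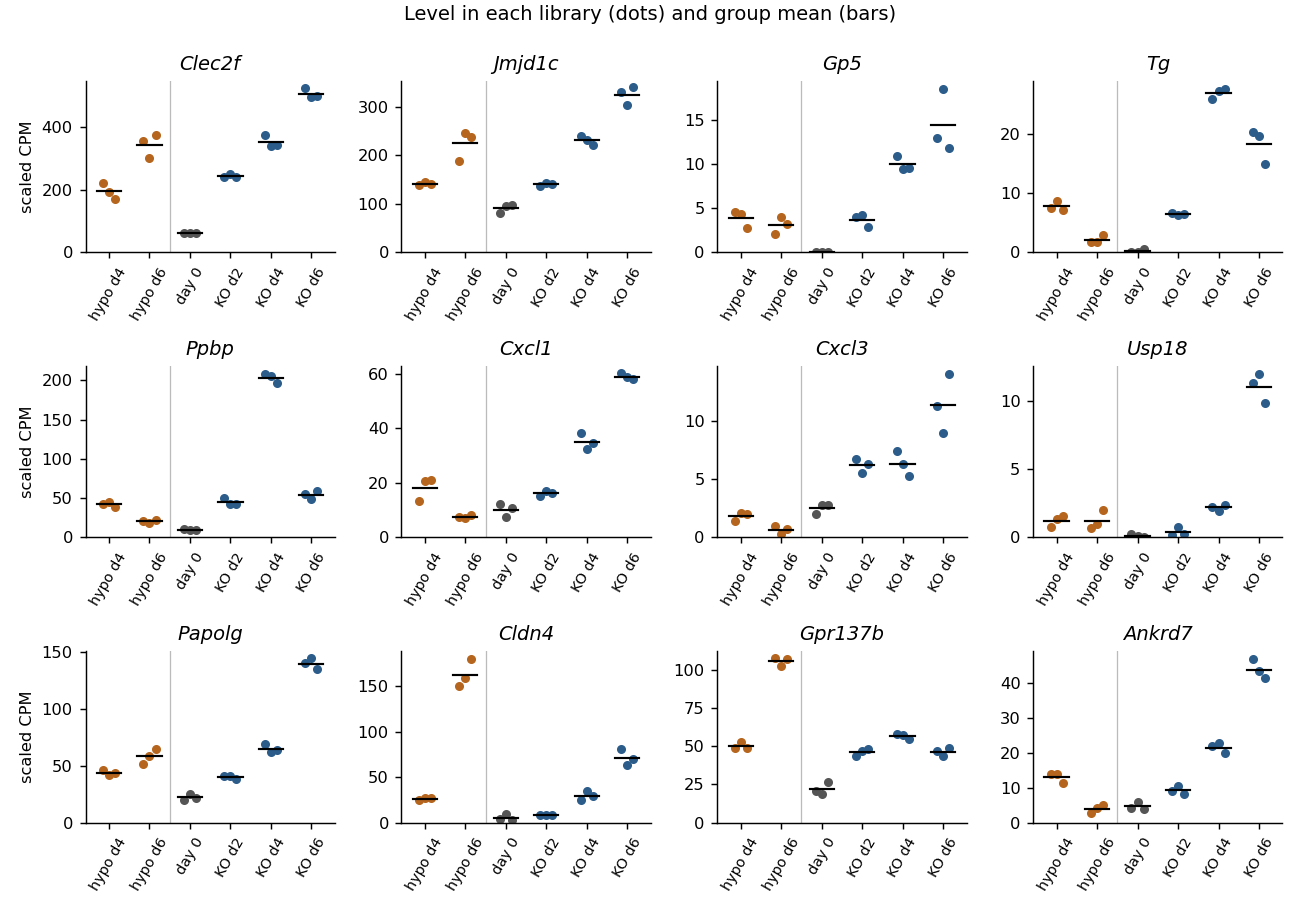
Scaled CPM in each of 3 libraries per group (dots) and the group mean (bars) for 12 genes, with hypomorph days 4 and 6 left of the grey line and day 0 and KO days 2, 4 and 6 right of it. Cldn4 and Gpr137b stand above KO at hypomorph day 6, whereas at that time Cxcl3 lies below the day 0 libraries and Cxcl1 and Ankrd7 overlap them.

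The steepest ratios belonged to genes with few or no reads at day 0, many of them known from tissues other than esophagus. Gp5 encodes platelet glycoprotein V, part of the von Willebrand factor receptor complex. It had 2.08, 4.00 and 3.21 scaled CPM at hypomorph day 6 and 4.59, 4.31 and 2.75 at hypomorph day 4. In the KO it had 4.00, 4.25 and 2.91 at day 2, 10.95, 9.44 and 9.61 at day 4 and 12.98, 18.5 and 11.8 at day 6, and no read in any day 0 library. Taking 3 reads per day 0 library as the limit, the KO day 6 mean was at least 79.9-fold higher and the hypomorph day 6 mean at least 17.1-fold higher. The hypomorph libraries lay below every KO day 4 and day 6 library, and hypomorph day 6 and day 4 overlapped, with a log2 difference of -0.30 ± 0.23 (SE; limma adjusted p = 0.274). Of 13 platelet and megakaryocyte genes on a list, 4 were tested. Between hypomorph day 4 and day 6 none rose and 2 fell, against 31.9% and 30% of all genes tested. Of 5 defining platelet markers, Pf4, Gp9, Gp1bb and Tubb1 were not listed in the table, and Itga2b ranged from 3.72 to 4.24 at hypomorph day 6, 6.86 to 9.91 at KO day 6 and 2.67 to 4.45 at day 0.

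Tg encodes thyroglobulin, the protein from which thyroid hormone is made, and it was the sole listed gene among 12 of thyroid hormone synthesis. It had 1.75, 1.69 and 2.96 scaled CPM at hypomorph day 6 and 7.49, 8.72 and 7.06 at hypomorph day 4. The KO course gave 0, 0 and 0.603 scaled CPM without deletion (day 0), then 6.69, 6.29 and 6.51 with KO for 2 days, 25.9, 27.2 and 27.5 for 4 days and 20.3, 19.6 and 14.9 for 6 days. It fell between hypomorph day 4 and hypomorph day 6, with a log2 difference of -1.68 ± 0.23 (SE; limma adjusted p = 4.93e-07), and the groups did not overlap. Frmd7, a FERM-domain gene that is mutated in a human form of congenital nystagmus, had 2.96, 3.87 and 4.26 scaled CPM at hypomorph day 6 and 4.64, 4.68 and 4.31 at hypomorph day 4, against 17.4, 17.3 and 14.8 at KO day 6 and 0.11, 0.103 and 0.362 at day 0. Its log2 difference between hypomorph day 6 and KO day 6 was -2.03 ± 0.20 (SE; limma adjusted p = 7.60e-10). Impg2, a proteoglycan of the matrix around photoreceptors, had 3.72, 3.31 and 3.20 at hypomorph day 6 and 10.5, 8.51 and 8.14 at KO day 6, against 0.549, 0.82 and 0 at day 0.

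Mss51 and Murc, known from muscle, and Nek10 and Dnah8, known from cilia, had means between KO and day 0 in the hypomorph, as most of the 165 genes did. Mss51, a mitochondrial protein of skeletal muscle, had 3.94, 5.18 and 5.29 scaled CPM at hypomorph day 6 and 5.24, 4.79 and 4.40 at hypomorph day 4, against 15.1, 19.14 and 13.3 at KO day 6 and 0.769, 0.41 and 0.603 at day 0. Murc, which encodes the muscle caveolar protein cavin-4, had 2.85, 2.87 and 2.87 scaled CPM at hypomorph day 6 and 4.13, 2.72 and 3.44 at hypomorph day 4, against 8.81, 7.67 and 10.4 at KO day 6 and 0.275, 0.615 and 0.362 at day 0. In neither gene did hypomorph day 6 differ from hypomorph day 4 by the test, with log2 differences of -0.01 ± 0.19 (SE; limma adjusted p = 0.973) and -0.21 ± 0.20 (SE; limma adjusted p = 0.378). Of 22 skeletal muscle genes on a list, 5 were tested. Between hypomorph day 4 and day 6 none rose and 2 fell, against 31.9% and 30% of all genes tested. Nek10, a kinase of ciliated cells, had 0.876, 0.811 and 2.53 scaled CPM at hypomorph day 6 and 2.89, 3.33 and 3.30 at hypomorph day 4, against 11.9, 10.3 and 12.4 at KO day 4 and 7.54, 8.45 and 7.40 at KO day 6, and no read at day 0. It fell between hypomorph day 4 and hypomorph day 6, by -1.06 ± 0.25 (SE; limma adjusted p = 6.19e-04) on the log2 scale. Dnah8, an axonemal dynein heavy chain, had 3.99, 9.49 and 8.31 scaled CPM at hypomorph day 6 and 10.9, 9.68 and 10.8 at hypomorph day 4, against 37.7, 45.2 and 42.3 at KO day 6 and 1.81, 3.74 and 2.29 at day 0. Of 23 motile cilium genes on a list, 6 were tested. Between hypomorph day 4 and day 6 none rose and 4 fell, against 31.9% and 30% of all genes tested. Lrrc69 was the other gene of the set on that list, with 2.57, 3.81 and 2.75 scaled CPM at hypomorph day 6 and 5.14, 4.86 and 3.90 at hypomorph day 4. Its fall of -0.54 ± 0.20 (SE; limma adjusted p = 0.0202) was lost without hypomorph day 4 replicate 1 or 2 or hypomorph day 6 replicate 1 or 3, with a limma adjusted p up to 0.0822. Over 12 genes known from other tissues, grouped after their values had been seen, none rose and 4 fell between hypomorph day 4 and day 6. Over all genes tested, 31.9% rose and 30% fell. All 12 were called below KO at hypomorph day 6, where 81.2% of the 165 genes were.

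The set held 4 chemokine genes, Ppbp, Cxcl3, Cxcl1 and Ccl20, which like most of the 165 genes stood below KO at hypomorph day 6. Ppbp, Cxcl3 and Cxcl1 lie on chromosome 5, with 16038 bases between Ppbp and Cxcl3 and 103152 between Cxcl3 and Cxcl1, and RefSeq places other genes in both gaps. All encode CXC chemokines that act on the neutrophil receptor CXCR2, Ppbp being the precursor best known from platelets. Their promoters are shown because these related genes of 1 chromosome differed in course in the KO. RefSeq promoters (GRCm38.p6, 250 bases before to 50 after the start) were searched on both strands for an NF-kappaB motif (GGG, then any pair of letters, TT, any letter and CC) and for TATAAA, the TATA box, and the letters that matched are in capitals. The first is in 5.19% and the second in 7.28% of the 9720 promoters searched. The NF-kappaB matches on the gene's own strand and the TATA matches that begin 30 bases before the start read as follows, 5' to 3'.
Cxcl1, chr5:90891164-90891193, + strand: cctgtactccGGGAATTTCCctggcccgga
Cxcl3, chr5:90786018-90786047, + strand: gagctgcgggGGGAATTTCCccagcccggg
Cxcl3, chr5:90786059-90786088, + strand: ccagtcatcatgTATAAAaggggttcgcag
Ppbp, chr5:90768476-90768505, + strand: cctcttcggcagTATAAAaagaggtctgga
The NF-kappaB matches in Cxcl1 and Cxcl3 begin 71 and 73 bases before the start and share all of their letters, and Ppbp has a further TATA match that begins 8 bases before the start. A match of letters says nothing of whether a factor was bound there.

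Ppbp had 21.0, 18.1 and 22.3 scaled CPM at hypomorph day 6 and 42.6, 45.6 and 38.5 at hypomorph day 4. Its KO course ran through 11.1, 8.77 and 8.86 scaled CPM without deletion (day 0), then 49.5, 42.7 and 42.0 with KO for 2 days, 208, 205 and 196 for 4 days and 54.7, 49.4 and 58.4 for 6 days, so that KO day 4 stood apart from every other group. Ppbp, Lgals1 and Tmprss11e were the 3 genes of the set whose KO day 4 mean was at least 1.5 times the KO day 6 mean. Ppbp fell between hypomorph day 4 and hypomorph day 6, with a log2 difference of -1.03 ± 0.10 (SE; limma adjusted p = 1.68e-09). Cxcl1 had 7.50, 6.99 and 8.36 scaled CPM at hypomorph day 6 and 13.2, 20.5 and 21.1 at hypomorph day 4. In the course of deletion it had 12.2, 7.59 and 10.7 scaled CPM without deletion (day 0), then 15.3, 17.2 and 16.3 with KO for 2 days, 38.2, 32.6 and 34.5 for 4 days and 60.2, 58.8 and 58.0 for 6 days. All KO day 6 libraries lay above all others, while hypomorph day 6 overlapped day 0. The fall between hypomorph day 4 and day 6 was -1.18 ± 0.15 (SE; limma adjusted p = 1.61e-07) on the log2 scale. Against day 0, the hypomorph day 6 difference was -0.37 ± 0.15 (SE; limma adjusted p = 0.0339), a call lost without day 0 replicate 1 or 3, without hypomorph day 6 replicate 1 or 2, and when the compared groups were fitted alone. Without the libraries with high Alb that difference was 0.00125, with a limma adjusted p of 0.997. Cxcl3 had 0.985, 0.25 and 0.742 scaled CPM at hypomorph day 6 and 1.38, 2.12 and 1.97 at hypomorph day 4, against 11.3, 8.95 and 14.1 at KO day 6 and 1.98, 2.82 and 2.77 at day 0. Every hypomorph day 6 library was below every day 0 library, with a log2 difference of -1.43 ± 0.24 (SE; limma adjusted p = 7.17e-06). Ccl20, which draws CCR6-bearing lymphocytes and dendritic cells, had no read at day 0. It reached 5.93, 6.71 and 5.69 at KO day 6, and stood at 0.657, 0.374 and 0.717 at hypomorph day 6, a log2 difference of -2.62 ± 0.29 (SE; limma adjusted p = 1.19e-08). Il1a, the alarmin interleukin 1 alpha, had 2.08, 1.44 and 1.82 at hypomorph day 6, 4.95, 4.31 and 5.77 at KO day 6 and 0.659, 1.18 and 1.51 at day 0. These 4 chemokines and Il1a, grouped after their values had been seen, were all called below KO at hypomorph day 4 and day 6, where 58.2% and 81.2% of the 165 genes were. The call of Il1a at day 4 was lost without hypomorph day 4 replicate 3 and without the libraries with high Alb, with a limma adjusted p up to 0.0788. Of 23 chemokine genes on a list, 12 were tested. Between hypomorph day 4 and day 6, 2 rose and 5 fell, against 31.9% and 30% of all genes tested.

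Of 6 leukocyte markers, Lyz2, Tyrobp and Cd52 were not listed in the table. The other 3 summed to 472 to 512 scaled CPM at hypomorph day 6, 460.5 to 499 at KO day 6 and 76.4 to 81.3 at day 0. Most of this was Cd68, a gene of lysosomes, with means of 486 at hypomorph day 6, 475 at KO day 6 and 71.6 at day 0. Their part in the chemokine and immune results was not tested.

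All 4 interferon-linked genes, grouped after their values had been seen, were called below KO at hypomorph day 6, as were 81.2% of the 165 genes. Usp18 removes the ubiquitin-like protein ISG15 from its targets and damps type I interferon signalling. It had 0.657, 0.999 and 1.98 scaled CPM at hypomorph day 6 and 0.735, 1.32 and 1.56 at hypomorph day 4. Along the KO course it measured 0.275, 0.103 and 0 scaled CPM without deletion (day 0), then 0.157, 0.75 and 0.283 with KO for 2 days, 2.24, 1.96 and 2.40 for 4 days and 11.4, 11.98 and 9.87 for 6 days. KO day 6 stood above all other groups, and hypomorph day 6 differed from it by -2.83 ± 0.31 (SE; limma adjusted p = 6.36e-09) on the log2 scale. Of 20 interferon-stimulated genes on a list, 16 were tested. Between hypomorph day 4 and day 6, 3 rose and 5 fell, against 31.9% and 30% of all genes tested. Usp18 alone belonged to the 165. Xaf1 and Igtp, which interferons also induce, and Nlrc5, a transactivator of MHC class I genes, were likewise called below KO at hypomorph day 6. Nlrc5 had 6.84, 9.24 and 5.58 at hypomorph day 6, 19.9, 17.4 and 18.9 at KO day 6 and 2.03, 2.67 and 1.75 at day 0. Pglyrp2, an amidase that cleaves bacterial peptidoglycan, had 0.93, 0.811 and 1.05 at hypomorph day 6, 13.2, 11.4 and 13.5 at KO day 6 and 0.22, 0 and 0.482 at day 0. Mill1, a mouse MHC class I-like gene, had 0.766, 0.874 and 0.653 at hypomorph day 6, 10.1, 10.0 and 9.63 at KO day 6 and 0.165, 0.205 and 0 at day 0. In both genes most of the KO level appeared between day 4 and day 6, the KO day 4 libraries holding 1.68, 0.877 and 1.83 for Pglyrp2 and 1.25, 1.58 and 0.686 for Mill1. Plscr2, a gene of the phospholipid scramblase family, had 0.438, 1.12 and 0.499 at hypomorph day 6 and 8.38, 8.003 and 8.27 at KO day 6.

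Genes of T cell costimulation differed in their level relative to KO. Cd80, which binds CD28 on T cells, had 83.9, 83.5 and 89.5 scaled CPM at hypomorph day 6, 86.0, 80.4 and 90.5 at KO day 6 and 38.7, 37.5 and 42.1 at day 0. The hypomorph and KO day 6 libraries overlapped, with a log2 difference of 0.00 ± 0.08 (SE; limma adjusted p = 0.996). Tnfrsf4, the T cell costimulatory receptor OX40, was above KO at hypomorph day 6, with 22.5, 21.6 and 21.9 against 10.6, 11.6 and 12.96 and a log2 difference of 0.89 ± 0.14 (SE; limma adjusted p = 2.52e-06). Its annotation overlaps the end of its expressed neighbour Sdf4 on the same strand, so its reads may be split between them. Skint4, of the butyrophilin-like Skint family of mouse epithelia, rose between hypomorph day 4 and day 6 with 23.2, 30.1 and 30.5 scaled CPM at hypomorph day 6 and 13, 12.1 and 10.96 at hypomorph day 4 and a log2 difference of 1.18 ± 0.15 (SE; limma adjusted p = 1.81e-07). Ulbp1, a stress-induced ligand of the receptor NKG2D, had 23.4, 26.0 and 28.5 at hypomorph day 6 and 62.9, 60.5 and 79.8 at KO day 6. Over 8 surface ligands and receptors of immune recognition, grouped after their values had been seen, 4 rose and none fell between hypomorph day 4 and day 6. Over all genes tested, 31.9% rose and 30% fell. At hypomorph day 6, 81.2% of the 165 genes were called below KO. Of these 8, 6 were called below KO, 1 above and 1 was not called. Among those below was Icosl, the ligand of ICOS, with 4.27, 3.18 and 4.81 at hypomorph day 6 and 7.10, 6.38 and 5.95 at KO day 6, a call lost without the libraries with high Alb.

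Of 4 tight junction genes, grouped after their values had been seen, 1 rose, 1 fell and 2 were not called between hypomorph day 4 and day 6. Over all genes tested, 31.9% rose and 30% fell. Cldn4, a claudin of tight junctions in simple and glandular epithelia, had 150.4, 158 and 179.5 scaled CPM at hypomorph day 6 and 25.2, 27.5 and 26.5 at hypomorph day 4. In the KO course it had 4.39, 9.23 and 2.77 scaled CPM without deletion (day 0), then 8.46, 8.24 and 8.14 with KO for 2 days, 24.4, 34.9 and 29.5 for 4 days and 80.4, 63.3 and 69.9 for 6 days. All hypomorph day 6 libraries lay above all KO day 6 libraries. Cldn4 rose by 2.60 ± 0.28 (SE; limma adjusted p = 2.55e-06) between hypomorph day 4 and day 6, the largest rise of the set, and was above KO at day 6 by 1.19 ± 0.28 (SE; limma adjusted p = 0.00225). Cldn7, another claudin, had 2.63, 0.499 and 1.95 at hypomorph day 6 and 8.28, 5.76 and 7.79 at KO day 6, and was called below KO by -1.97 ± 0.33 (SE; limma adjusted p = 7.80e-06). Marveld2, the tricellular junction protein tricellulin, fell between hypomorph day 4 and day 6, with 3.50, 3.37 and 3.03 scaled CPM at hypomorph day 6 and 7.99, 6.56 and 7.70 at hypomorph day 4 and a log2 difference of -1.06 ± 0.16 (SE; limma adjusted p = 1.17e-06). Tjp3, a scaffold of tight junctions, had 0.876, 1.62 and 1.42 at hypomorph day 6 and 7.003, 8.11 and 8.70 at KO day 6. Of 18 simple and glandular epithelium genes on a list, 8 were tested. Between hypomorph day 4 and day 6, 1 rose and 3 fell, against 31.9% and 30% of all genes tested.

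Inhba, which encodes the subunit of activin A, had 21.8, 22.8 and 23.1 scaled CPM at hypomorph day 6 and 3.63, 5.18 and 2.75 at hypomorph day 4, against 12.9, 9.63 and 10.6 at KO day 4 and 18.9, 16.7 and 20.3 at KO day 6 and 6.97, 4.77 and 4.22 at day 0. Hypomorph day 4 overlapped day 0, and hypomorph day 6 stood above every KO day 6 library. Its rise between hypomorph day 4 and day 6 was 2.45 ± 0.18 (SE; limma adjusted p = 2.86e-12), although the difference from KO at day 6 missed the threshold at 0.28 ± 0.18 (SE; limma adjusted p = 0.185). Cdkn1c, the imprinted gene of the cyclin-dependent kinase inhibitor p57, had 26.3, 23.5 and 27.2 scaled CPM at hypomorph day 6 and 6.16, 6.40 and 7.52 at hypomorph day 4, against 22.2, 23.1 and 23.0 at KO day 6, and rose by 1.87 ± 0.19 (SE; limma adjusted p = 1.47e-09). Zbtb10 and Repin1, zinc finger genes, and Rnf223, a RING finger gene, rose by 2.37, 2.11 and 1.85 on the log2 scale, with limma adjusted p between 3.69e-09 and 6.05e-08. None of these 3 was called different from KO at hypomorph day 6. Rhoc, Rhof and Rnd1, small GTPases of the actin cytoskeleton, rose as well. Rhoc had 13.6, 11.05 and 15.4 scaled CPM at hypomorph day 6 and 4.50, 4.21 and 3.76 at hypomorph day 4, with a log2 difference of 1.57 ± 0.27 (SE; limma adjusted p = 2.70e-05). The rise of Rnd1, 0.71 ± 0.24 (SE; limma adjusted p = 0.0111), was lost without hypomorph day 4 replicate 3, with an adjusted p of 0.0964, and without hypomorph day 6 replicate 1, with 0.0840. Serpinb6c and Serpinb9b, of the clade B serpins that inhibit proteases inside cells, rose by 0.87 ± 0.24 (SE; limma adjusted p = 0.0051) and 0.80 ± 0.18 (SE; limma adjusted p = 3.60e-04). Serpinb9b had 23.4, 20.5 and 24.0 at hypomorph day 6 and 22.6, 29.3 and 24.1 at KO day 6, which overlapped. Clade B serpins are a family of close copies in mice, so their counts are uncertain where reads match more than 1 gene.

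Upk1b, a uroplakin of bladder epithelium, was the 1 gene called above KO at hypomorph day 4. It had 21.4, 16.2 and 23.4 scaled CPM at hypomorph day 6 and 19.0, 19.9 and 17.2 at hypomorph day 4, against 4.32, 6.86 and 4.92 at KO day 4, 3.82, 7.05 and 5.53 at KO day 6 and 1.37, 2.46 and 1.81 at day 0. Every hypomorph library stood above every KO and day 0 library, and the level was 348% of KO at day 4 and 372% at day 6. The log2 differences from KO were 1.73 ± 0.21 (SE; limma adjusted p = 8.83e-07) and 1.82 ± 0.21 (SE; limma adjusted p = 2.59e-08). Gpr137b, a lysosomal membrane protein, had 108, 102 and 107 scaled CPM at hypomorph day 6 and 48.4, 52.9 and 49.0 at hypomorph day 4, against 58.0, 57.4 and 54.9 at KO day 4 and 47.0, 43.3 and 49.0 at KO day 6. It exceeded KO at day 6 by 1.18 ± 0.10 (SE; limma adjusted p = 4.76e-11). Sprr2k, of the small proline-rich proteins of the cornified envelope, had 34.7, 23.2 and 25.5 scaled CPM at hypomorph day 6 and 15.4, 13.9 and 13.9 at hypomorph day 4 and exceeded KO at day 6 by 1.06 ± 0.17 (SE; limma adjusted p = 3.23e-06). The calls above KO at hypomorph day 6 of Upk1b, Cldn4, Gpr137b, Sprr2k and Tnfrsf4 held in every alternative tried. Those of Upk3bl, 0.35 ± 0.11 (SE; limma adjusted p = 0.00479), Ahi1, a gene of the ciliary base, 0.32 ± 0.10 (SE; limma adjusted p = 0.00798), and Rnf208, a RING finger gene, 0.49 ± 0.21 (SE; limma adjusted p = 0.0469), were each lost on the rescaled values. Without the libraries with high Alb, those of Upk3bl and Ahi1 were lost. The call of Ahi1 was also lost without KO day 6 replicate 1, and that of Rnf208 without any 1 of the hypomorph day 6 libraries and without KO day 6 replicate 1 or 3. Bc1, a short noncoding RNA derived from a repeat, varied widely between libraries, with 247, 95.4 and 198 at hypomorph day 6, 118, 68.7 and 104 at KO day 6 and 29.3, 61.7 and 34.9 at day 0.

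Of the 40 genes that fell between hypomorph day 4 and day 6, 21 were no longer called above day 0 at hypomorph day 6 and 19 still were. Ankrd7, an ankyrin repeat gene, had 2.68, 4.18 and 4.92 scaled CPM at hypomorph day 6 and 13.9, 13.9 and 11.3 at hypomorph day 4. Over the KO course the level was 4.06, 5.90 and 3.92 scaled CPM without deletion (day 0), then 8.92, 10.4 and 8.17 with KO for 2 days, 21.8, 22.6 and 19.8 for 4 days and 46.8, 43.3 and 41.3 for 6 days. KO libraries climbed without overlap while hypomorph day 6 overlapped day 0, and the difference between hypomorph day 6 and day 4 was -1.64 ± 0.17 (SE; limma adjusted p = 2.63e-09). Ubap1l had 0.109, 0.125 and 0.243 scaled CPM at hypomorph day 6 and 1.47, 1.94 and 1.28 at hypomorph day 4, against 5.09, 5.99 and 4.10 at KO day 6 and 0.714, 0.513 and 0.482 at day 0, and its fall was -1.64 ± 0.27 (SE; limma adjusted p = 5.25e-06). Samd10 had 9.85, 10.7 and 10.6 scaled CPM at hypomorph day 6 and 26.6, 26.3 and 28.6 at hypomorph day 4, against 11.3, 13.9 and 12.5 at day 0, with a fall of -1.34 ± 0.12 (SE; limma adjusted p = 8.53e-11). Csta1, a mouse gene of the cystatin A family of protease inhibitors, had 2.74, 0.312 and 1.56 scaled CPM at hypomorph day 6 and 3.95, 3.37 and 3.99 at hypomorph day 4 and fell by 1.28 ± 0.33 (SE; limma adjusted p = 0.00179). Lgals1, which encodes galectin 1, had its highest group mean at day 4 in both states. It had 24.5, 17.9 and 23.1 scaled CPM at hypomorph day 6 and 51.6, 52.0 and 54.2 at hypomorph day 4, against 42.9, 49.8 and 44.2 at KO day 4, 23.5, 22.3 and 21.5 at KO day 6 and 11.97, 7.54 and 13.1 at day 0. All hypomorph day 6 libraries stayed above day 0. Its log2 difference between hypomorph day 6 and day 4 was -1.26 ± 0.14 (SE; limma adjusted p = 1.34e-08).

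A few further genes stood out by their course, chosen after their values had been seen. Their differences from KO share the KO libraries with the rule, which favours levels below KO. Itga2, the collagen-binding integrin alpha 2 subunit, had 7.66, 8.11 and 10.5 scaled CPM at hypomorph day 6 and 6.89, 8.21 and 7.02 at hypomorph day 4. The KO course gave 6.26, 6.87 and 9.34 scaled CPM without deletion (day 0), then 19.9, 23.8 and 18.9 with KO for 2 days, 23.1, 21.3 and 21.3 for 4 days and 32.4, 29.3 and 41.5 for 6 days. Both hypomorph groups overlapped day 0 and lay below every KO library, with log2 differences from KO of -1.51 ± 0.15 (SE; limma adjusted p = 3.25e-08) at day 4 and -1.91 ± 0.15 (SE; limma adjusted p = 2.00e-11) at day 6. Foxn1, a transcription factor of thymic and skin epithelium, had 14.8, 16.5 and 13.2 scaled CPM at hypomorph day 6 and 9.19, 9.08 and 9.45 at hypomorph day 4, against 19.3, 18.7 and 15.7 at KO day 4, 19.7, 20.6 and 22.0 at KO day 6 and 5.55, 7.38 and 10.0 at day 0. It overlapped day 0 at hypomorph day 4 and rose by 0.65 ± 0.15 (SE; limma adjusted p = 5.57e-04) to hypomorph day 6. Pkp2, the desmosomal protein plakophilin 2, rose by 0.64 ± 0.16 (SE; limma adjusted p = 7.38e-04) over the same days, with 10.5, 7.99 and 9.97 scaled CPM at hypomorph day 6 and 5.33, 6.31 and 6.01 at hypomorph day 4. Tchh, which encodes trichohyalin of the hair follicle, fell by 0.77 ± 0.13 (SE; limma adjusted p = 5.41e-06), with 11.2, 10.6 and 12.7 scaled CPM at hypomorph day 6 and 20.4, 20.0 and 19.4 at hypomorph day 4. Fut4, a fucosyltransferase, had 4.38, 4.74 and 5.18 scaled CPM at hypomorph day 6 and 10.4, 7.76 and 9.86 at hypomorph day 4, against 9.20, 9.25 and 10.98 at KO day 4 and 25.0, 16.5 and 23.1 at KO day 6. At day 4 it overlapped KO, with a log2 difference of -0.07 ± 0.21 (SE; limma adjusted p = 0.838), and at day 6 it lay below KO, with -2.05 ± 0.21 (SE; limma adjusted p = 3.27e-09). Rec8, the meiotic cohesin subunit, had 2.08, 2.00 and 1.65 scaled CPM at hypomorph day 6 and 1.98, 1.74 and 2.25 at hypomorph day 4, against 2.20, 1.36 and 1.26 at KO day 4 and 8.91, 7.33 and 10.5 at KO day 6, with log2 differences from KO of 0.26 ± 0.27 (SE; limma adjusted p = 0.515) at day 4 and -1.96 ± 0.27 (SE; limma adjusted p = 4.41e-07) at day 6. Chrnb2, a subunit of neuronal nicotinic receptors, had 4.49, 4.49 and 6.07 at hypomorph day 6 and 18.8, 21.1 and 22.5 at KO day 6. Rbm20, a splicing regulator of striated muscle, had 0.547, 1.12 and 0.845 at hypomorph day 6, 0.424, 0.378 and 0.343 at KO day 4 and 4.75, 6.10 and 6.66 at KO day 6.

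The remaining genes with an established symbol fall into 3 classes by the comparison of hypomorph day 6 with hypomorph day 4. The 51 genes that rose did so by 0.27 to 2.60 on the log2 scale, and 36 of these calls held in every alternative. Besides those described, they included Adgrg6, Cib2, Cnbd2, Cystm1, Dnase1l3, Fam71f2, Farp1, Fblim1, Icosl, Myh10, Pcdhga10, Pik3ip1, Surf1, Tfcp2l1, Tlcd2, Tnfaip2 and Zfp941. The 40 genes that fell did so by -0.21 to -1.68, and 30 of these calls held in every alternative. Besides those described, they included Ang, Crip1, Hgfac, Neurl1b, Unc13b, Wfikkn1 and Zcchc3. The 74 genes not called ranged from -0.67 to 0.65. They included Adamdec1, Amot, Bspry, Catsperg1, Ccdc141, Eid2b, Fcmr, Fgfr1op, Flot2, Gnal, Gnrh1, Hpgds, Kctd4, Ldoc1l, Map10, Plekha8, Ptprj, Skint3, Slc25a35, Slc2a6, Slc45a3, Tctex1d2, Tmem236, Ttll11, Uhmk1 and Vwa7. Of the 165 genes, 34 had provisional symbols and are counted but not described singly.

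Papolg and Cpeb1 act on poly(A) tails. Papolg encodes poly(A) polymerase gamma, a nuclear enzyme that adds poly(A) tails. It was the 1 gene of the set among 19 cleavage and polyadenylation factors. Of these 19, 4 rose and 10 fell between hypomorph day 4 and day 6, against 31.9% and 30% of all genes tested. Papolg had 51.5, 58.5 and 64.9 scaled CPM at hypomorph day 6 and 46.4, 41.5 and 43.8 at hypomorph day 4. Its KO course ran through 19.4, 25.1 and 21.8 scaled CPM without deletion (day 0), then 41.0, 40.5 and 38.1 with KO for 2 days, 69.3, 62.3 and 63.5 for 4 days and 140.1, 144 and 135 for 6 days. The KO groups climbed without overlap, and hypomorph day 6 lay below KO day 6 by -1.26 ± 0.09 (SE; limma adjusted p = 5.45e-12). Cpeb1, a protein that binds the cytoplasmic polyadenylation element in 3' UTRs, had no read at day 0. It had 5.14, 4.00 and 4.57 scaled CPM at hypomorph day 6 and 1.01, 0.834 and 2.02 at hypomorph day 4, against 2.00, 1.51 and 2.29 at KO day 4 and 7.98, 9.68 and 6.14 at KO day 6, and it rose by 1.55 ± 0.29 (SE; limma adjusted p = 4.03e-05) between hypomorph day 4 and day 6. Cdkl4, a cyclin-dependent kinase-like gene, had 0.164, 1.25 and 1.11 at hypomorph day 6 and 8.67, 9.51 and 8.40 at KO day 6. Mcmdc2, a gene of meiotic recombination, had 0.821, 0.187 and 0.486 at hypomorph day 6 and 5.78, 3.75 and 5.58 at KO day 6. No gene of the set was on the lists of lysosomal, squamous differentiation, ATF4 stress response, p53 target, germ cell, EGF receptor ligand or replication-dependent histone genes. The lists are not complete, and they leave out genes of the set described in such classes, among them Sprr2k, Gpr137b, Rec8 and Mcmdc2.

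The step between day 4 and day 6 was compared between the states by an interaction term, which shares the KO libraries with the rule. On the log2 scale the step was smaller in the hypomorph than in the KO in 67 genes and larger in 17. Over all genes tested, 18.2% were called smaller and 27.4% larger. The median of this difference was -0.58 over the 165 genes and 0.09 over all genes. On the rescaled values, where the median of all genes moved by -0.21, the counts were 89 smaller and 10 larger, so that 10.1% rather than 20.2% of the called genes were larger. Without the libraries with high Alb the counts were 44 and 8. In the fitted values, 76 genes were higher at day 6 than at day 4 in both states and 20 were lower in both. Another 60 were higher in the KO and lower in the hypomorph, and 9 the other way round. The rule set a minimum level at KO day 6 alone, which favours a rise from day 4 to day 6 in the KO. These counts were not made over all genes, and nothing is read from them alone.

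**Figure D4:**
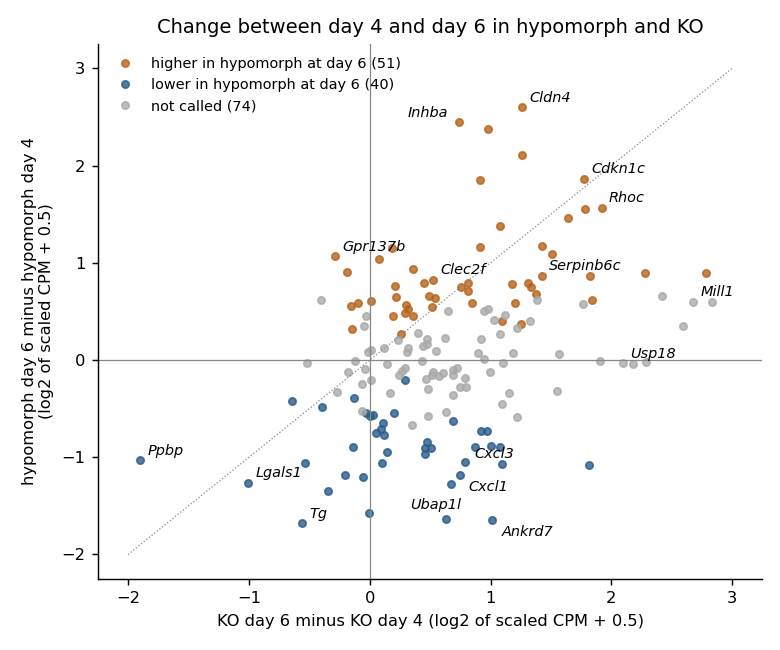
Difference between day 6 and day 4 on the log2(scaled CPM + 0.5) scale in the hypomorph (y axis) and in the KO (x axis), 1 dot per gene, coloured by the limma call in the hypomorph, with a dotted line of equal change. The hypomorph shows 51 genes higher and 40 lower at day 6, and Ppbp and Lgals1 lie in the lower left, lower at day 6 in both states.

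Poly(A) site use was measured apart from the mRNA levels, by PAS-seq at KO day 4 and in control. For each gene the authors' deposited table gives how often the proximal site was used relative to the distal one, as 1 pooled ratio per condition, so these shares have no replicate error and their depth is unknown. It covered 15 of the 165 genes, 9.09%, against 35.0% of the genes tested, and nothing is known here of the other 150. The authors called 10 of the 15 shorter and none longer, and made no call for 5. Over the 4324 genes of the table, 49.4% were called shorter. The median change of the proximal share was 41.2 percentage points over the 15 genes and 19.8 over all genes of the table. Among the 40 genes of the table whose KO day 4 mean was at least 2 times day 0, which include the 15, 20 were called shorter. The 15 genes are too few to set apart from these shares.

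Jmjd1c showed the largest shift, with a proximal share of 96.8% at KO day 4 and 4.71% in control. Dnajc16, which encodes a DnaJ-family protein, followed with 88.7% at KO day 4 and 5.26% in control. Tmem185b, a transmembrane protein gene, had 79.4% at KO day 4 and 3.30% in control, and Car5b, the mitochondrial carbonic anhydrase, 80.8% at KO day 4 and 5.56% in control. In these 4 genes the distal site dominated in control and the proximal site at KO day 4. Nhlrc3 had 76.5% at KO day 4 and 3.57% in control and Tmf1 96.5% at KO day 4 and 28.3% in control. Tmprss11e had 41.2% at KO day 4 and 0% in control, where 0 is the authors' ratio. Gpr137b, with 99.3% at KO day 4 and 72.9% in control, and Cd80, with 40.2% at KO day 4 and 14.3% in control, moved less. The authors made no call for Fads3, Acsbg1, Upk3bl, Lgals1 and Igfbp7. Igfbp7 had 92.5% at KO day 4 and 96.7% in control and Lgals1 96.7% at KO day 4 and 96.7% in control, so that the proximal site already served nearly all transcripts in control.

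The genes named with a shorter 3' end did not share one course in the hypomorph. Jmjd1c, Nhlrc3, Tmf1, Gpr137b and Tmem185b rose between hypomorph day 4 and day 6, and Tmprss11e and Car5b fell. Cd80 was not called. The rise of Tmem185b, 0.27 ± 0.08 (SE; limma adjusted p = 0.00497), was lost on the rescaled values. Car5b had 6.51, 6.87 and 8.86 scaled CPM at hypomorph day 6 and 11.3, 12.4 and 9.72 at hypomorph day 4, against 14.9, 16.6 and 15.8 at KO day 6 and 7.41, 6.97 and 6.87 at day 0, and its fall was -0.56 ± 0.15 (SE; limma adjusted p = 0.00179). Dnajc16 had 34.6, 39.8 and 42.6 scaled CPM at hypomorph day 6 and 42.3, 44.9 and 48.3 at hypomorph day 4, against 68.5, 68.5 and 73.3 at KO day 6. Its hypomorph groups overlapped, with a log2 difference of -0.21 ± 0.09 (SE; limma adjusted p = 0.04999), a call lost without hypomorph day 4 replicate 2 or 3 and without hypomorph day 6 replicate 1 or 2, where the adjusted p reached 0.254. It was also lost with the compared groups fitted alone (0.101), with a pseudocount of 2 (0.0503) and without the libraries with high Alb (0.0688).

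**Figure D5:**
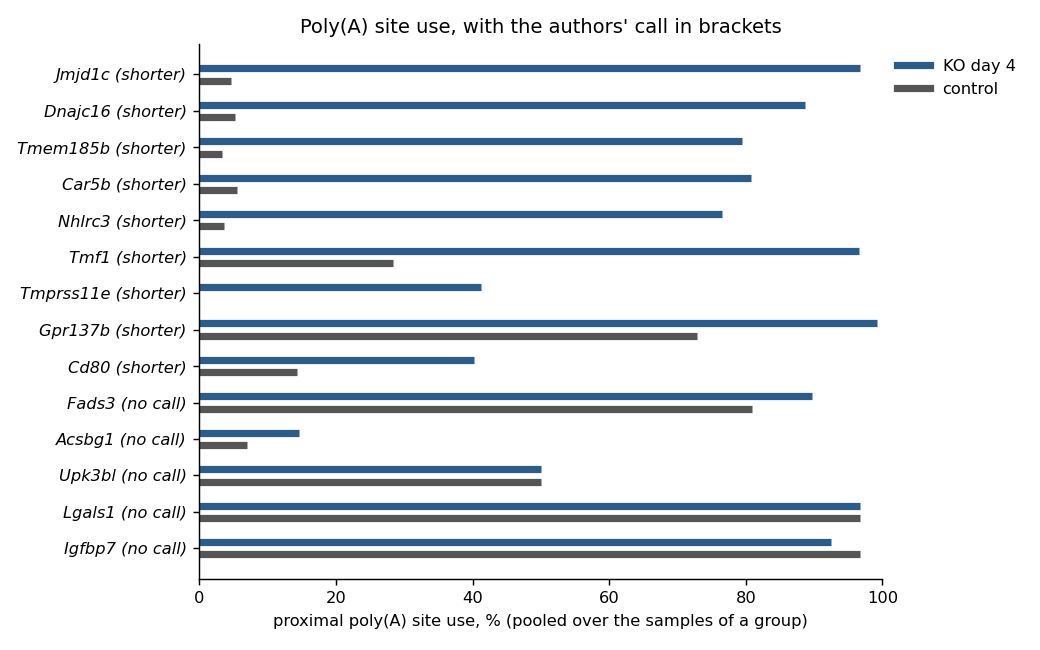
Proximal poly(A) site use in percent, KO day 4 (upper bar) and control (lower bar), for 14 genes of the set in the PAS-seq table, from 1 pooled ratio per condition; brackets hold the call made by the authors. The 9 of them called shorter gain between 25.9 and 92.1 percentage points; Tmprss11e has 0% in control.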

How the data were processed

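Messenger RNA was measured in 18 libraries of poly(A)-selected RNA, 3 in each of 6 groups, and poly(A) site use by PAS-seq in KO day 4 and control samples. The submitters' processing notes name STAR, featureCounts and the build mm10 for the mRNA samples, and mm9 for PAS-seq. Tool versions and the strand setting are not given in the sources used here. The deposited mRNA table holds a signal per gene and library, a CPM as scaled by the authors (scaled CPM). The design had assumed plain CPM, but column totals differed, from 910000 to 1170000. Reads recovered from the steps were whole within 0.1 read in 100% of values. The lengths used per kilobase are those the authors deposited. The authors' deposited tables for the hypomorph give a log2 change and an adjusted p-value per gene, made by a test not stated. For PAS-seq the deposited values are 1 ratio per gene and condition, proximal over distal, pooled by the authors and turned here into a proximal share in percent.

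Two-sided limma tests (version 3.58.1, R 4.3.3) used log2(scaled CPM + 0.5). A single model held all 18 libraries and a mean for every group, and its moderated variances followed the mean level and were robust to outlying genes. Genes at 1 or more scaled CPM in at least 3 libraries were kept (12344), and p-values were adjusted over all of them in each of 6 comparisons. The script was tested on simulated data. A gene was called at an adjusted p under 0.05. Fold changes on this scale understate the change of low genes. Alternatives were a pseudocount of 2, no filter, edgeR 4.0.16 quasi-likelihood tests on the recovered reads, a replicate block, the compared groups alone, leaving out each replicate or the libraries with high Alb, and, chosen after seeing the data, rescaling all libraries to the same total. The 165 genes and the 17 gene lists were chosen with earlier results of these data known. The genes named follow a rule: the largest KO ratios at days 6 and 2, the highest KO day 6 means, the largest hypomorph changes, the extreme ratios of hypomorph to KO at day 6, the largest poly(A) site shifts, list members, and genes next to a threshold, leaving out provisional symbols. Other named genes, and the grouping of genes by role, were chosen after their values were seen. Positions and promoters are from RefSeq GRCm38.p6; 152 of the 165 symbols were matched. The small RNA table, the authors' KO comparisons and the hypomorph PAS-seq ratios were not used here. Of the 15 genes in the PAS-seq table, 1 is counted but not reported singly here.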

Additional observations from a re-analysis of the deposited data

Results flagged for a closer look

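The 16 genes given here come from those named by the naming rule and are not all such genes of the set. In the fitted values of the whole set, 60 genes were higher at day 6 in the KO and lower in the hypomorph, and 9 the reverse. These counts were not made over all genes. In the 16 genes the group means moved in opposite directions between day 4 and day 6 in the hypomorph and in the KO. The interaction term, the hypomorph step minus the KO step on the log2 scale, passed the threshold in the fit over all genes. The term shares the KO libraries with the rule that chose the genes. In 13 of the 16 the hypomorph mean was lower at day 6 and the KO mean higher. The naming rule takes, among others, the largest hypomorph changes and extreme ratios of hypomorph to KO at day 6, which favours such genes. The 16 were kept because they met both conditions, so nothing is read from this split or from the p-values alone.

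Among chemokines, Cxcl1 had -1.93 ± 0.22 (SE; limma adjusted p = 7.30e-08) and Cxcl3 -1.84 ± 0.34 (SE; limma adjusted p = 7.79e-05). Cxcl1 averaged 7.61 at hypomorph day 6 and 18.3 at hypomorph day 4, and in the KO 59.0 at day 6 against 35.1 at day 4 (scaled CPM). Ankrd7, an ankyrin repeat gene, had -2.66 ± 0.24 (SE; limma adjusted p = 1.72e-09), with means of 3.93 at hypomorph day 6 and 13.0 at hypomorph day 4, and in the KO 43.8 at day 6 against 21.4 at day 4. Ubap1l had -2.27 ± 0.38 (SE; limma adjusted p = 2.00e-05), Csta1, of the cystatin A family, -1.95 ± 0.47 (SE; limma adjusted p = 0.00161) and Cdkl4, a kinase gene, -1.87 ± 0.46 (SE; limma adjusted p = 0.00161). Mcmdc2, a gene of meiotic recombination, had -1.76 ± 0.40 (SE; limma adjusted p = 7.77e-04). These 7 calls held in every alternative run, as did that of Igfbp7, the growth factor binding protein, at -0.74 ± 0.14 (SE; limma adjusted p = 1.56e-04).

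Frmd7 had a difference of -1.03, Syt8 one of -0.67, Car5b one of -0.59, Dnajc16 one of -0.50 and Ier3 one of -0.38, with limma adjusted p between 3.85e-05 and 0.0245. These 5 calls, and that of Tnfrsf4, were lost without the 7 libraries with high Alb, and that of Car5b also without hypomorph day 4 replicate 2, hypomorph day 6 replicate 1 or KO day 4 replicate 3.

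In the other 3 genes given here the hypomorph mean was higher at day 6 and the KO mean lower. Gpr137b, the lysosomal membrane protein, had 1.36 ± 0.14 (SE; limma adjusted p = 1.44e-08), with means of 105 at hypomorph day 6 and 50.1 at hypomorph day 4, and in the KO 46.4 at day 6 against 56.8 at day 4. Sprr2k had 1.10 ± 0.24 (SE; limma adjusted p = 4.43e-04) and Tnfrsf4 0.68 ± 0.19 (SE; limma adjusted p = 0.00544). The calls of Gpr137b and Sprr2k held in every alternative run.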

How the results depend on the processing

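Direction and call were kept in 3239 of 3390 alternatives over 246 results for named genes; 150 kept the direction without the call, and 1 reversed. That was Cxcl1 at hypomorph day 6 against day 0, at 0.00125 on the log2 scale without the libraries with Alb above 100. Without those libraries the genes below KO at hypomorph day 4 numbered 63 and not 96, and the interaction called 44 smaller and not 67, and 8 larger and not 17. Rescaling all libraries to the same total gave 7 and not 3 genes below day 0 at hypomorph day 6, 5 and not 8 above KO at hypomorph day 6, and 10 and not 17 larger in the interaction. Fitting the compared groups alone gave 1 gene below day 0 at hypomorph day 6. Leaving out 1 library gave 0 to 1 genes below day 0 at hypomorph day 4, 1 to 4 at hypomorph day 6, 44 to 52 higher and 36 to 44 lower between hypomorph day 6 and day 4. The cause was not tested. By edgeR on recovered reads, 48 were higher and 42 lower between hypomorph day 6 and day 4. The rule with a KO day 6 mean of at least 10 chose 101 genes, and with at least 2 it chose 303; other forms chose 130 to 209. Replicate numbers are shared by the groups, but over 45 same-numbered pairs the correlation of deviations ran from -0.811 to 0.709, with 10 above 0.1, so the numbers were not taken to pair libraries. With a replicate block, 51 genes were higher and 41 lower between hypomorph day 6 and day 4, 94 were below KO at day 4 and 133 at day 6. The share of genes near an upstream gene on the same strand was void, since 111 of 165 genes (67.3%) had a strand and 80% were needed, so the distances of 5 and 50 kb were not run. Low levels limit precision, with 52 genes under 1 scaled CPM at day 0.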

Other observations

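Some genes of the set lie just downstream of an expressed gene on the same strand (RefSeq GRCm38.p6). They were chosen for this after their values were seen, and the share of the set with such a neighbour was not assessed. Nek10 starts 3636 bases past the end of Slc4a7, a bicarbonate transporter gene that averaged 90.0, 48.5 and 22.3 scaled CPM at KO days 2, 4 and 6 and 86.2 at day 0. Mss51 starts 2463 bases past Ppp3cb, a calcineurin subunit gene with 72.4, 43.5 and 33.7 scaled CPM at KO days 2, 4 and 6 and 72.8 at day 0. Murc starts 382 bases past Tmeff1, with 44.2, 32.2 and 22.5 scaled CPM at KO days 2, 4 and 6 and 45.9 at day 0. Hgfac starts 1867 bases past Rgs12, a regulator of G protein signalling, with 210.4, 167 and 101 scaled CPM at KO days 2, 4 and 6 and 177 at day 0. Ccdc141 starts 6571 bases past Sestd1, with 32.3, 18.6 and 14.9 scaled CPM at KO days 2, 4 and 6 and 38.2 at day 0. In these 5 pairs the upstream mean was lower at KO day 6 than at day 0 while the downstream gene was higher, as the rule required. At hypomorph day 6 the mean was above day 0 for Tmeff1 (77.0) and Ppp3cb (75.8). It was below day 0 for Slc4a7 (75.2), Rgs12 (92.0) and Sestd1 (24.1). In the KO the fall was slight upstream of Cdkl4, and upstream of Wfikkn1, Marveld2, Tmf1 and Rec8 the mean was higher at KO day 6. Rec8 starts 7972 bases past Irf9, with 23.9 scaled CPM at KO day 6 and 6.32 at day 0. Marveld2 starts 193 bases past Rad17, with 42.1 scaled CPM at KO day 6 and 29.6 at day 0. Tmf1 starts 4481 bases past Uba3, with 122 scaled CPM at KO day 6 and 98.5 at day 0. Cdkl4 starts 2700.0 bases past Map4k3, with 55.7, 46.7 and 54.9 scaled CPM at KO days 2, 4 and 6 and 59.4 at day 0, and Wfikkn1 1256 bases past Rab40c, with 39.2, 41.6 and 57.7 scaled CPM at KO days 2, 4 and 6 and 40.7 at day 0. Whether reads that run past the upstream gene were counted for the downstream one was not tested.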
